A study of Mus musculus with 24 samples.

Results

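MiR-193, miR-193b and miR-365 are 3 mouse microRNAs (miRNAs) made from paired hairpins, and all 3 stood lower in mammary carcinoma cells treated with TGF-beta than in cells treated with an inhibitor of its receptor. They were picked by their exact names on the array, mmu-miR-193, mmu-miR-193b and mmu-miR-365, and make up 3 of the 558 mouse miRNA probes. They were chosen with the difference between TGF-beta and inhibitor known, so that difference is described below without a test. The tested comparisons are those between microenvironments and between lines, though earlier results of these data were known when the members were chosen. A difference of the TGF-beta response between lines or microenvironments draws on the values behind the choice, and its p for a member is no independent evidence. In 67NR cells all 3 were called higher in the rigid than in the compliant microenvironment (adjusted p under 0.05), as were 6.3% of all tested probes. There no rigid and compliant array with the same treatment shared a slide. With slide as a fixed block miR-193b kept its call, and miR-193 and miR-365 lost theirs. In all lines together miR-193 alone passed the test of rigid against compliant, narrowly.

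Cells of 3 lines, 67NR, 4TO7 and 4T1, had been kept for 6 days in 3D organotypic culture. They are sublines of one mouse mammary tumour, and the labels call 67NR nonmetastatic, 4TO7 systemically invasive and 4T1 highly metastatic. Each line was grown in a rigid or a compliant microenvironment and treated with TGF-beta or with a TGF-beta type I receptor inhibitor, which the labels also call basal. The 12 groups were 67NR, 4TO7 and 4T1 cells, each rigid with TGF-beta, rigid with inhibitor, compliant with TGF-beta and compliant with inhibitor. No group had neither agent, so an action of TGF-beta and an opposite action of the inhibitor cannot be told apart. Each group had 2 arrays, named set 1 and set 2. Nothing in the labels says that a group's arrays come from separate cultures. The p-values therefore reflect only how far arrays of a group vary, which may be technical. Each degree of invasiveness is represented by 1 line.

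A miRNA is cut from a hairpin transcript, and its seed, the bases near its 5′ end, pairs with target messenger RNAs and lowers their output. MiR-193b and miR-365 are known as a cluster enriched in brown fat, where it has been reported to aid brown adipocyte differentiation in mouse cells. In human breast cancer cells miR-193b has been reported to repress the urokinase-type plasminogen activator, a protease linked to invasion. TGF-beta is a secreted factor known to induce epithelial-mesenchymal transition and to raise matrix deposition.

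The mature sequences show how the members relate, with the seed, bases 2 to 8, in capitals. MiR-193 and miR-193b share a seed, and miR-365 has another. The sequences are those of RefSeq on GRCm38.p6, in which the 4 array names looked up, the passenger strand miR-193* included, all matched. The array's miR-193 corresponds to RefSeq's miR-193a-3p.
miR-193: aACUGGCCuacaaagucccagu
miR-193b: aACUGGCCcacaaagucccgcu
miR-365: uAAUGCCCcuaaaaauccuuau
miR-193*: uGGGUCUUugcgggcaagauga
MiR-193 and miR-193b have the same base at 19 of 22 positions. The differences, counted from 1 at the 5′ end with the base of miR-193 first, were U9C, A20G and G21C, all outside the seed. Of 1679 mature mouse miRNA names in the RefSeq table, only miR-193a-3p and miR-193b-3p carry their seed, and miR-365-3p alone carries its own. The array files hold no probe sequences, and binding of one miR-193 species to the probe of the other was not tested.

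The genome holds the members as 2 pairs of hairpins on GRCm38.p6, all on the plus strand. Mir193a lies at chr11:79711969-79712034, and Mir365-2 lies 14365 bases further on at chr11:79726400-79726511. The second pair is Mir193b at chr16:13449523-13449601 and, 4238 bases further on, Mir365-1 at chr16:13453840-13453926. In the RefSeq annotation of that assembly both chromosome 16 hairpins lie within the noncoding genes Gm32817 and Gm53058, between the coding genes Mrtfb and Parn. The chromosome 11 pair overlaps no other annotated gene and lies between Rab11fip4 and Utp6. The hairpins of miR-365 are shown with the mature strand in capitals, because both give the same mature miRNA and the array cannot say which of them made it.
Mir365-2: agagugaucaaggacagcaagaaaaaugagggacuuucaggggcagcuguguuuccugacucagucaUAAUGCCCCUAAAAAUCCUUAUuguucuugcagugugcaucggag
Mir365-1: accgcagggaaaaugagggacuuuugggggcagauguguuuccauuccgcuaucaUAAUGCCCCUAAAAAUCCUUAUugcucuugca
Each miR-365 value is therefore the sum over a chromosome 11 and a chromosome 16 hairpin, whereas miR-193 comes from chromosome 11 and miR-193b from chromosome 16.

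The arrays gave a relative intensity per probe, the sample dye over a synthetic reference, which is shown here as log2 after quantile normalization. The 24 arrays lay on 5 slides, with 313 to 357 mouse miRNA probes detected on each (detection p under 0.05), and 365 probes were tested. The correlation across probes between the arrays of a group was 0.995 to 0.999. All 3 members were detected on 24 of 24 arrays with no fail code, and their highest detection p was 0.000174, for miR-365. The median percent error the files give was 6.31% for miR-193, 6.04% for miR-193b and 5.54% for miR-365. The residual SD within groups was 0.09 for miR-193, 0.10 for miR-193b and 0.09 for miR-365 (log2, 12 residual degrees of freedom). Precision is limited by the number of arrays. Of 7 epithelial marker miRNAs, 2 were detected on all 8 arrays of 67NR, 2 on all of 4TO7 and 6 on all of 4T1. Of 4 fibroblast and mesenchymal markers on the array, 4 were detected on all arrays of 67NR, 3 of 4TO7 and 3 of 4T1. The endothelial miR-126 strands, the blood miRNAs miR-142, miR-223 and miR-150, the muscle miRNA miR-1 and the neural miRNA miR-124 were detected on no array. The blood miRNA miR-451 was detected on all 8 arrays of each line. Of the muscle markers miR-206 and miR-208b, 2 were detected on all arrays of 67NR, 1 of 4TO7 and 1 of 4T1, and of the neural and liver markers miR-9, miR-128 and miR-122, 2 were detected on all arrays of each line. These are bulk samples, so fewer cells with a miRNA and less of it per cell cannot be told apart.

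All TGF-beta arrays of miR-193 lay below all of its inhibitor arrays. In 67NR cells its log2 level in sets 1 and 2 was 10.45 and 10.61 (rigid) and 10.25 and 10.26 (compliant) with TGF-beta, against 11.40 and 11.38 (rigid) and 11.30 and 11.16 (compliant) with inhibitor. In 4TO7 cells it was 10.15 and 10.10 (rigid) and 10.15 and 10.08 (compliant) with TGF-beta, against 10.76 and 10.81 (rigid) and 10.65 and 10.63 (compliant) with inhibitor. In 4T1 cells it was 10.28 and 10.26 (rigid) and 10.03 and 10.28 (compliant) with TGF-beta, against 11.21 and 11.11 (rigid) and 11.11 and 11.34 (compliant) with inhibitor. The highest TGF-beta array, 10.61 in rigid 67NR, lay just under the lowest inhibitor array, 10.63 in compliant 4TO7, so the treatments did not overlap even across lines. The inhibitor arrays of 4TO7 stood clearly below those of the other lines, while the TGF-beta arrays of the lines lay closer together.

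MiR-193b, the copy on chromosome 16, gave the same order of treatments. In 67NR cells it stood at 8.36 and 8.48 (rigid) and 7.91 and 8.10 (compliant) with TGF-beta, against 8.99 and 9.0 (rigid) and 8.89 and 8.73 (compliant) with inhibitor. In 4TO7 cells it stood at 8.27 and 8.22 (rigid) and 8.33 and 8.14 (compliant) with TGF-beta, against 8.60 and 8.71 (rigid) and 8.75 and 8.66 (compliant) with inhibitor. In 4T1 cells it stood at 8.20 and 8.04 (rigid) and 8.07 and 8.14 (compliant) with TGF-beta, against 8.97 and 8.74 (rigid) and 8.80 and 8.95 (compliant) with inhibitor. Here too no TGF-beta array reached the lowest inhibitor array, 8.48 against 8.60. The lowest 2 arrays of all were those of compliant 67NR cells with TGF-beta and rigid 4T1 set 2 with TGF-beta, at 7.91 and 8.04.

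MiR-365, which has another seed and a hairpin in both pairs, was lower with TGF-beta within each line but overlapped between lines. In 67NR cells it measured 8.42 and 8.47 (rigid) and 8.25 and 8.17 (compliant) with TGF-beta, against 9.0 and 9.02 (rigid) and 8.83 and 8.82 (compliant) with inhibitor. In 4TO7 cells it measured 7.76 and 7.98 (rigid) and 7.90 and 7.91 (compliant) with TGF-beta, against 8.63 and 8.39 (rigid) and 8.29 and 8.42 (compliant) with inhibitor. In 4T1 cells it measured 7.87 and 7.82 (rigid) and 7.70 and 7.94 (compliant) with TGF-beta, against 8.52 and 8.58 (rigid) and 8.61 and 8.65 (compliant) with inhibitor. The rigid 67NR arrays with TGF-beta, up to 8.47, lay above the lowest inhibitor array, 8.29 in compliant 4TO7, and this is the overlap. All 67NR arrays of a treatment lay above the 4TO7 and 4T1 arrays of the same treatment.

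**Figure D1:**
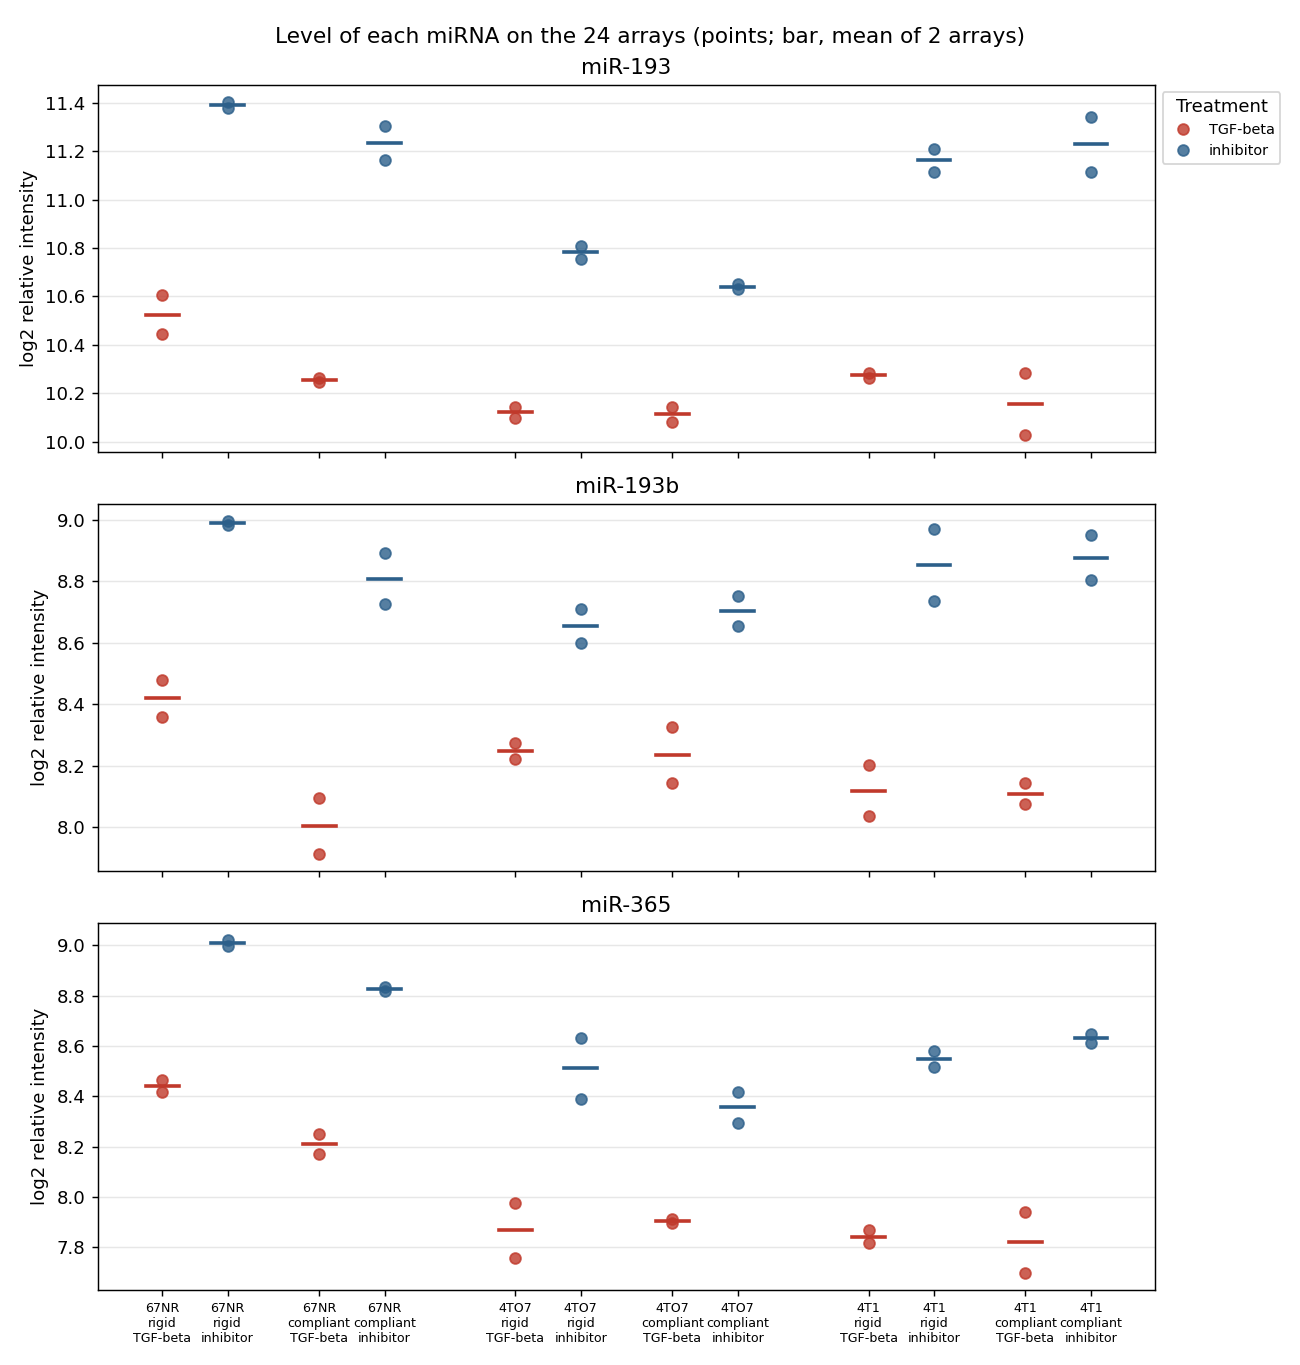
Log2 relative intensity (vertical axis) of miR-193, miR-193b and miR-365 on the 24 arrays, by line, microenvironment and treatment (horizontal axis); each point is an array and each bar the mean of 2 arrays. The TGF-beta points lie below the inhibitor points in all 6 pairings of line and microenvironment for each miRNA, and for miR-365 the 67NR points of each treatment lie above the points of the other lines with the same treatment.

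Ordered by group mean, the 6 inhibitor groups of miR-193 held the top 6 places, with rigid 67NR first at 11.39 and compliant 4TO7 sixth at 10.64. Rigid 67NR with TGF-beta came 7th at 10.53, and compliant 4TO7 with TGF-beta was last at 10.11. In 6 of the 11 pairs of neighbours the arrays overlapped, among them all pairs from 8th place down. MiR-193b had the same split, with rigid 67NR with inhibitor first at 8.99 and compliant 67NR with TGF-beta last at 8.0, and 8 of 11 neighbouring pairs overlapped. For miR-365 the first places went to 67NR with inhibitor, rigid at 9.01 and compliant at 8.83. Rigid 67NR with TGF-beta came 6th at 8.44, above compliant 4TO7 with inhibitor at 8.36, and these neighbours overlapped. The last place of miR-365 was compliant 4T1 with TGF-beta at 7.82, and 6 of 11 neighbouring pairs overlapped.

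Over all lines miR-193 averaged 10.24 with TGF-beta and 11.07 with inhibitor (12 arrays each), a difference of -0.83 ± 0.04 (SE), or 1.78-fold lower. MiR-365 averaged 8.01 with TGF-beta and 8.65 with inhibitor, a difference of -0.63 ± 0.04. MiR-193b averaged 8.19 with TGF-beta and 8.82 with inhibitor, a difference of -0.63 ± 0.04. The members thus took 4th, 5th and 6th place among the largest differences downward of 365 probes. Just above them stood miR-221 (-1.07) and miR-210 (-0.84), and just below miR-125b-5p (-0.47) and miR-26a (-0.40). All 3 members were among the 66 probes called lower at an adjusted p under 0.05 (18.1%), which their choice implies. With another scaling the split of 78 higher and 66 lower calls became 43 and 84 (median of all mouse probes), 100 and 52 (median of probes detected on every array) or 110 and 50 (the authors' deposited table), while the 3 members were lower in each. The median difference of all tested probes was 0.01.

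Complete separation of the 12 TGF-beta arrays below the 12 inhibitor arrays was seen for 4 of 365 probes (1.1%), namely miR-193, miR-193b, miR-221 and miR-222. Separation of both TGF-beta arrays below both inhibitor arrays in all 6 pairings of line and microenvironment was seen for all 3 members, and for 17 of 365 probes (4.66%). The choice of the members fixes these directions. Only 5 matched pairs of a TGF-beta and an inhibitor array were on a common slide, none of them in 4T1. They are not independent, since the pairs of rigid 4TO7 cultures used the same TGF-beta array. Within those slides the difference ran between -1.05 and -0.55 for miR-193, between -0.98 and -0.38 for miR-193b and between -0.66 and -0.42 for miR-365.

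The size of the difference varied by line. For miR-193 it was -0.92 in 67NR, -0.59 in 4TO7 and -0.98 in 4T1. For miR-193b it was -0.69 in 67NR, -0.44 in 4TO7 and -0.75 in 4T1. For miR-365 it was -0.59 in 67NR, -0.55 in 4TO7 and -0.76 in 4T1. The choice of the members implies these differences, and nothing is read from their being among the probes called lower, which made up 7.67% of probes in 67NR, 11.8% in 4TO7 and 19.2% in 4T1. Without normalization the difference of miR-193b in 4TO7 was -0.27. Over the 6 pairings the smallest difference was -0.41, for miR-193b in rigid 4TO7, and the largest was -1.07, for miR-193 in compliant 4T1. MiR-193 had a larger difference than miR-193b in 6 of 6 pairings (-0.20 on average), and than miR-365 in 6 of 6 pairings (-0.20 on average). Between miR-193b and miR-365 neither was ahead, with miR-193b further down in 4 of 6 pairings and an average gap of 0.01.

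**Figure D2:**
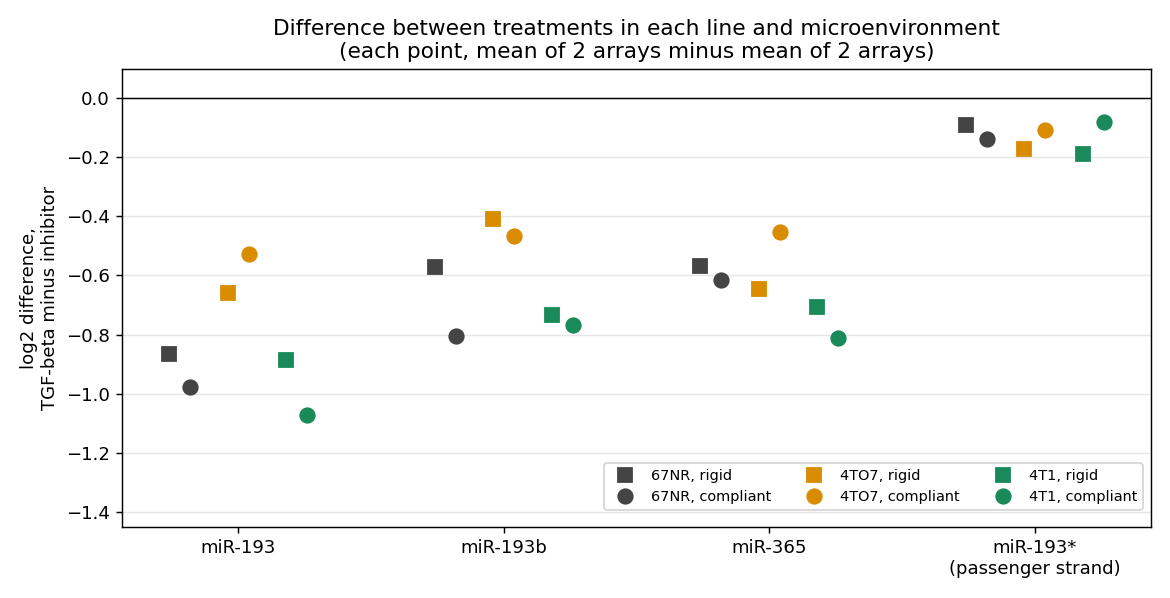
Log2 difference of TGF-beta minus inhibitor (vertical axis) for the 3 miRNAs and the passenger strand miR-193* (horizontal axis), in each line (colour) and microenvironment (square, rigid; circle, compliant). Each point is a mean of 2 arrays minus a mean of 2 arrays; for miR-193 the 4TO7 points, -0.66 and -0.53, lie nearest to 0, and the miR-193* points lie between -0.19 and -0.08.

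Whether the TGF-beta response differed between the lines was tested with an F test in limma, adjusted over all probes. The responses within the lines were known when the members were chosen, so the p of a member here is not independent evidence. MiR-193 passed (adjusted p = 0.0120), as did 14.5% of all probes. Its response in 4TO7 was weaker than in 67NR by 0.33 on the log2 scale (95% interval 0.14 to 0.52), and the difference in 4T1 minus 4TO7 was -0.39 (-0.57 to -0.20). For 4T1 minus 67NR it was -0.06 (-0.25 to 0.13). The inhibitor means of the lines lay further apart than the TGF-beta means, since miR-193 averaged 10.12 with TGF-beta and 10.71 with inhibitor in 4TO7, 10.39 with TGF-beta and 11.31 with inhibitor in 67NR, and 10.22 with TGF-beta and 11.20 with inhibitor in 4T1. The call was lost when arrays were scaled to a median (adjusted p = 0.0533 over all mouse probes and 0.0525 over probes detected on all arrays), and it held without any 1 array.

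MiR-193b had the same order of responses but missed the threshold (adjusted p = 0.0674), with 4TO7 minus 67NR at 0.25 (0.05 to 0.45) and 4T1 minus 4TO7 at -0.31 (-0.52 to -0.11). MiR-365 missed it too (adjusted p = 0.191), with 4TO7 minus 67NR at 0.04 (-0.14 to 0.23) and 4T1 minus 4TO7 at -0.21 (-0.39 to -0.03). The members were not tested against each other. Whether the response depended on the microenvironment was also tested. The difference in rigid minus compliant was 0.05 for miR-193 (-0.10 to 0.21), 0.11 for miR-193b (-0.06 to 0.27) and -0.01 for miR-365 (-0.16 to 0.14), with adjusted p from 0.900 to 0.960. No probe passed this limma contrast (0%).

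The rigid microenvironment was set against the compliant one, which is not the contrast that the members were chosen from. Earlier results of these data were known when they were chosen, however. In 67NR cells all 3 members were higher in the rigid microenvironment. The values above show both rigid arrays over both compliant arrays in each treatment for each member, a pattern held by 7.4% of all probes. MiR-193b was higher by 0.30 (95% interval 0.16 to 0.44, adjusted p = 0.00791 by limma), at a mean of 8.71 in rigid and 8.41 in compliant cultures (4 arrays each). MiR-193 was higher by 0.21 (0.08 to 0.35, adjusted p = 0.0370), at 10.96 in rigid and 10.75 in compliant cultures. MiR-365 was higher by 0.21 (0.08 to 0.34, adjusted p = 0.0370), at 8.73 in rigid and 8.52 in compliant cultures. Of all probes 6.3% were called higher here, and the median difference of all probes was -0.01. The difference for miR-193b was 0.42 with TGF-beta and 0.18 with inhibitor. For miR-193 it was 0.27 with TGF-beta and 0.16 with inhibitor, and for miR-365 it was 0.23 with TGF-beta and 0.19 with inhibitor.

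No rigid and compliant array of 67NR with the same treatment shared a slide. With slide as a block the difference in 67NR was 0.23 for miR-193 (adjusted p = 0.0574) and 0.17 for miR-365 (adjusted p = 0.292), and miR-193b kept its call. The miR-193 call was lost without any of 6 of the 8 67NR arrays (all but rigid TGF-beta set 1 and compliant inhibitor set 1) or without either compliant inhibitor array of 4TO7, with an adjusted p of up to 0.183. The miR-365 call was lost without any 1 of the 8 67NR arrays, with an adjusted p of 0.0546 to 0.138. The miR-193b call held without any 1 array, with an adjusted p of up to 0.0465.

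In 4TO7 and in 4T1 no member passed the test between microenvironments. In 4TO7 the difference was 0.08 for miR-193 (-0.06 to 0.21), -0.02 for miR-193b (-0.16 to 0.13) and 0.06 for miR-365 (-0.07 to 0.19). In 4T1 it was 0.03 for miR-193 (-0.11 to 0.16), -0.01 for miR-193b (-0.15 to 0.14) and -0.03 for miR-365 (-0.16 to 0.10). These limma tests had adjusted p from 0.640 to 0.983, and they called 2.74% of probes in 4TO7 and 7.4% in 4T1. For miR-193b the rigid effect in 4TO7 minus that in 67NR was -0.32 (-0.52 to -0.11), and in 4T1 minus 67NR it was -0.31 (-0.51 to -0.10). The F test of the difference of the rigid effect between lines did not pass for miR-193b (adjusted p = 0.0660), for miR-365 (0.243) or for miR-193 (0.418), and 8.22% of probes passed. For miR-193b it passed under 5 of 12 alternatives. Within slides, there were 4 rigid and compliant pairs of 4T1 or 4TO7 with the same treatment. They differed by -0.05 to 0.26 for miR-193, by -0.11 to 0.13 for miR-193b and by -0.07 to 0.17 for miR-365. Both signs occurred for each member. The 4T1 pairs with TGF-beta used the same rigid array, so the pairs are not independent.

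Over all lines the rigid microenvironment gave a difference of 0.10 for miR-193 (0.03 to 0.18, adjusted p = 0.0486), which passed. The call was lost under 5 of 12 alternatives and without any 1 of 20 of the 24 arrays (adjusted p up to 0.1). For miR-193b the difference was 0.09 (adjusted p = 0.109) and for miR-365 0.08 (adjusted p = 0.129). The background of higher calls was 10.7%. Taken by treatment, the difference in TGF-beta cultures was 0.13 for miR-193, 0.15 for miR-193b and 0.07 for miR-365. In inhibitor cultures it was 0.08 for miR-193, 0.04 for miR-193b and 0.09 for miR-365. None of these 6 passed by limma (adjusted p 0.119 to 0.732), where 7.95% of probes were called with TGF-beta and 6.3% with inhibitor.

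MiR-193 and miR-365 were lower in 4TO7 and in 4T1 than in 67NR, and miR-193b passed in no pair of lines in the fit to all 24 arrays after quantile normalization. Calls between lines were common, at 86.8% of probes in 4TO7 against 67NR (57% as lower) and 89.6% in 4T1 against 67NR (58.9% as lower), so 2 of 3 members called each time is not a result about the members. These levels are set within each probe and averaged over microenvironments and treatments (8 arrays a line). MiR-365 stood at 8.16 in 4TO7 and 8.62 in 67NR, lower by 0.46 (-0.46, 95% interval -0.55 to -0.37, adjusted p = 5.96e-08). It stood at 8.21 in 4T1, a difference from 67NR of -0.41 (-0.50 to -0.32, adjusted p = 1.58e-07). In both comparisons both arrays lay below both arrays of 67NR in 4 of 4 matched groups, as was seen for 43% of all probes in 4TO7 and 47.4% in 4T1. MiR-193 stood at 10.41 in 4TO7 and 10.85 in 67NR, a difference of -0.44 (-0.53 to -0.34, adjusted p = 1.44e-07), with 4 of 4 matched groups separate. It stood at 10.71 in 4T1, a difference from 67NR of -0.15 (-0.24 to -0.05, adjusted p = 0.00540), with 2 of 4 matched groups separate.

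The median difference of all probes was -0.15 in 4TO7 and -0.22 in 4T1. The miR-193 difference in 4T1 was -0.31 with scaling to the median of all mouse probes, and it kept its call under the 12 alternatives. Without normalization its difference was -0.66 in 4TO7 against 67NR and 0.46 in 4T1 against 4TO7. MiR-193b differed from 67NR by -0.10 in 4TO7 (-0.20 to 0.01, adjusted p = 0.0721) and by -0.07 in 4T1 (-0.17 to 0.04, adjusted p = 0.199). Between 4T1 and 4TO7, miR-193 was higher in 4T1 by 0.29 (0.20 to 0.38, adjusted p = 3.38e-05). MiR-193b differed there by 0.03 (-0.07 to 0.13, adjusted p = 0.622) and miR-365 by 0.05 (-0.04 to 0.14, adjusted p = 0.322). In that comparison 63% of probes were called, 23% as higher, and the median of all probes was -0.07.

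**Figure D3:**
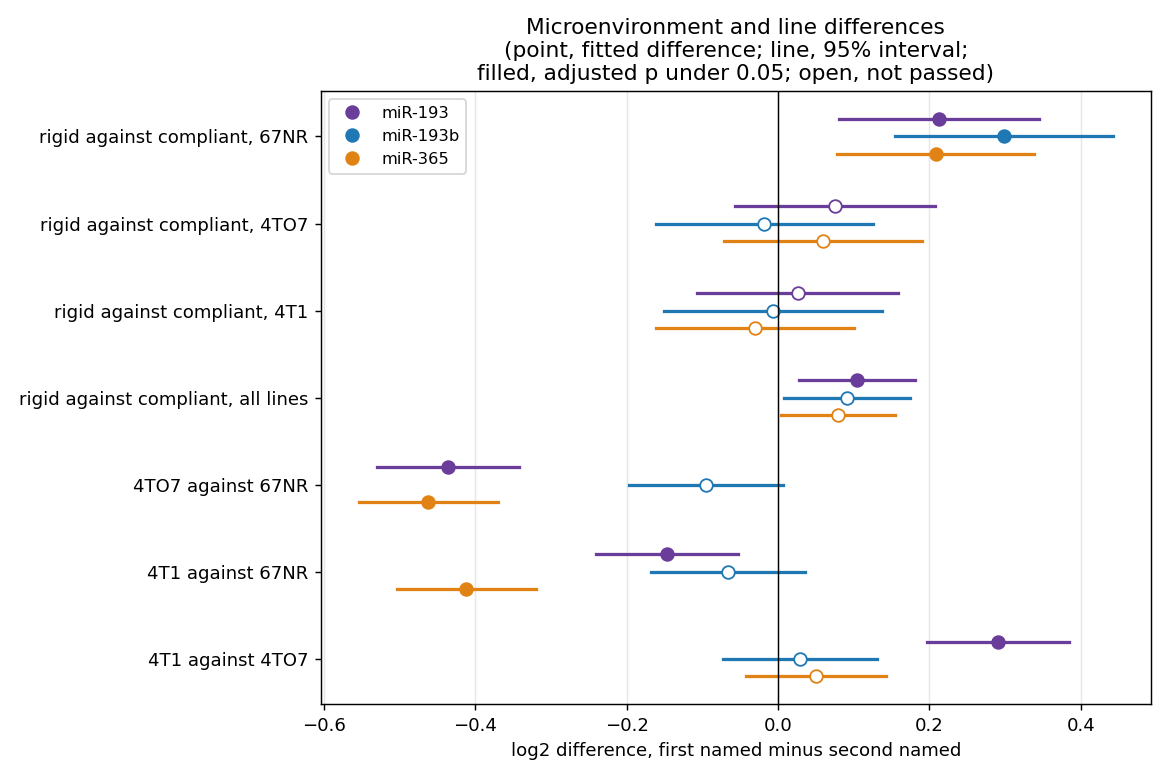
Fitted log2 difference (horizontal axis) of the 3 miRNAs between rigid and compliant cultures and between lines, first named minus second named (vertical axis); horizontal lines are 95% intervals, and filled points have an adjusted p under 0.05. The 3 filled points for rigid against compliant in 67NR lie at 0.21 to 0.30, and the miR-365 points of both lines against 67NR lie at -0.46 and -0.41, left of miR-193b at -0.10 and -0.07.

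For each member, the probes nearest in pattern across the 12 groups were the other members. Across the 12 group means, which share the TGF-beta difference that chose the members, Pearson's r was 0.94 between miR-193 and miR-193b, 0.94 between miR-193 and miR-365 and 0.88 between miR-193b and miR-365. The nearest other probes to miR-193, of 355 compared, were miR-493 (0.84), miR-99b* (0.81) and miR-151-3p (0.69). The nearest to miR-193b were miR-222 (0.82), miR-221 (0.79) and miR-99b* (0.75). The nearest to miR-365 were miR-493 (0.84), miR-193* (0.84) and miR-99b* (0.81). Of these, miR-221 and miR-222 had TGF-beta differences of -1.07 each, while miR-493 (-0.14) and miR-99b* (-0.07) had small ones. These values describe a pattern and carry no test.

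MiR-193* is the passenger strand of the Mir193a hairpin, the opposite arm, and the only passenger strand of these hairpins on the array. It was detected on 24 of 24 arrays but close to the threshold, with a detection p of up to 0.0388 and log2 levels of 6.40 to 6.84. Its difference with TGF-beta was -0.13 over all lines, -0.11 in 67NR, -0.14 in 4TO7 and -0.14 in 4T1. The arrays of the treatments overlapped in 4TO7. In 67NR and in 4T1 the highest TGF-beta array tied with the lowest inhibitor array, at 6.67 and 6.50. Its r to miR-193 over the 12 groups was 0.65. Between lines miR-193* was lower by 0.14 in 4TO7 than in 67NR (-0.14, adjusted p = 0.000700 by limma) and by 0.21 in 4T1 (-0.21, adjusted p = 1.18e-05). The median of all probes was close to these values, at -0.15 in 4TO7 and -0.22 in 4T1. The same comparisons called 86.8% and 89.6% of all probes, so these calls are not a result about the strand. Between microenvironments it did not pass in any line (adjusted p 0.401 to 1), with differences of 0.00 in 67NR, -0.08 in 4TO7 and 0.00 in 4T1.

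Other miRNAs reported to act in adipocyte and brown fat differentiation did not move as 1 block with TGF-beta. Of 13 tested, 3 were higher with TGF-beta and 4 lower over all lines by limma, beside 78 higher and 66 lower of all 365 probes. The largest difference upward was miR-155 (0.46, adjusted p = 4.50e-09), a miRNA reported to hold back brown adipocyte differentiation. The largest downward was miR-26a (-0.40, adjusted p = 9.06e-08). The median of the 13 was -0.04, beside 0.01 for all probes. By line, 0 of the 13 were higher with TGF-beta and 2 lower in 67NR, 3 and 4 in 4TO7, and 3 and 5 in 4T1. Among all 365 probes 12 were called higher and 28 lower in 67NR, 35 and 43 in 4TO7, and 46 and 70 in 4T1. The miR-155 difference was 1.15 in 4TO7. Between rigid and compliant cultures over all lines 0 were higher and 4 lower by limma, with miR-182 furthest down (-0.18, adjusted p = 0.000820). The list median was -0.05, beside 0.01 for all probes, of which 39 were called higher and 41 lower. In 67NR 0 of the 13 were higher and 2 were lower by limma, with miR-182 at -0.23 (adjusted p = 0.00852). Among all 365 probes 23 were called higher and 17 lower there. With so few calls among all probes, 0 higher of 13 is no result about the list. Between lines, 7 of the 13 were higher and 5 lower in 4TO7 against 67NR, and 8 were higher and 4 lower in 4T1 against 67NR, where 86.8% and 89.6% of all probes were called.

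Of 8 tested miRNAs reported as TGF-beta induced (11 listed), 5 were higher with TGF-beta and 0 were lower over all lines by limma. The list median was 0.28, beside 78 of 365 probes higher, 66 lower and a median of 0.01 for all probes. The largest difference was that of miR-181b (0.92, adjusted p = 1.54e-14). This list, like the one before it, was chosen with earlier results of these data known. Its counts and p-values are therefore no independent evidence. By line, 2 of the 8 were higher in 67NR, 4 in 4TO7 and 5 in 4T1, and 0 were lower in each. Among all 365 probes 12 were called higher and 28 lower in 67NR, 35 and 43 in 4TO7, and 46 and 70 in 4T1. The list counts are therefore not read as a difference between lines. In rigid against compliant 67NR cultures 0 of the 8 were higher and 2 were lower by limma, with miR-181a at -0.32 (adjusted p = 4.26e-05). Of all 365 probes 23 were called higher and 17 lower there.

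A few markers of other cell types were called in the rigid comparison in 67NR. There 1 of 7 epithelial markers was lower in rigid cultures (miR-203, -0.16), as was 1 of 3 neural and liver markers (miR-9, -0.27). Of 2 muscle markers 1 was lower (miR-208b, -0.39), and 0 of 4 fibroblast and mesenchymal markers was called. Among all 365 probes 23 were called higher and 17 lower there. Single calls in lists this short are not read as a shift of a cell type. With TGF-beta over all lines, the muscle markers miR-206 and miR-208b were both called lower. Of 7 epithelial markers 1 was higher (miR-200c, 0.09) and 1 lower (miR-205, -0.27). Of 4 fibroblast and mesenchymal markers 1 was higher (miR-199a-5p, 0.10). Among all 365 probes 78 were called higher and 66 lower in that comparison. By line, miR-205 was called lower in 4TO7 only (-0.86). Both miR-200c (0.22) and miR-199a-5p (0.20) were called higher in 4T1 only. Of all 365 probes 43 were called lower in 4TO7 and 46 higher in 4T1. Between lines 5 of 7 epithelial markers were higher in 4T1 than in 67NR and 4 of 4 fibroblast and mesenchymal markers were lower, in a comparison that called 89.6% of all probes, 58.9% as lower. Of the blood list, miR-451 alone was tested, and it was called lower in 4TO7 and in 4T1 than in 67NR and in no comparison between microenvironments or treatments. On the linear scale after normalization, the summed level of the 7 epithelial markers was 632 to 656 in rigid and 664 to 687 in compliant 67NR arrays, without overlap. Only 3 of these 7 were detected on any array of 67NR and 4 on any array of 4TO7. Their sums in these lines therefore include probes that were not detected. The 4 fibroblast and mesenchymal markers summed to 14153 to 14199 in rigid and 11845 to 14166 in compliant 67NR arrays, which overlapped. The 2 muscle markers summed to 384 to 402 in rigid and 436 to 519.6 in compliant 67NR arrays, without overlap. The 3 neural and liver markers summed to 429 to 444 in rigid and 455 to 515 in compliant 67NR arrays, also without overlap. Of these 3, only 2 were detected on any array of 67NR. The share of all probes, or of like sums, that separates in this way was not computed. These separations are therefore not read as a shift of a cell type. Between treatments all 4 sums overlapped, but there the arrays of the 3 lines were pooled. The lines differed in these sums, as given next. This overlap therefore cannot show whether a sum changed with treatment within a line. Across lines the epithelial sum was 1749 to 2004 in 4T1, 615 to 796 in 4TO7 and 632 to 687 in 67NR, and the fibroblast and mesenchymal sum was 6943 to 8764 in 4T1, 8803 to 9539.6 in 4TO7 and 11845 to 14199 in 67NR. The part of these markers in the results for miR-193, miR-193b and miR-365 was not tested.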

How the data were processed

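Per the file headers, the authors deposited for each probe a relative intensity on a linear scale (the DY649 sample signal divided by that of a synthetic DY547 reference, after background subtraction and a labelling correction), its error, and a p-value for presence above background. Their deposited table of log2 values covers 338 probes and equals the log2 of that intensity plus 1 constant per array (largest deviation 5.87e-06). Scanner and software are not given in the sources used here. Log2 intensities of the 558 mouse probes were normalized by quantiles (limma 3.58.1, R 4.3.3). Of these, 365 were tested: detected (p under 0.05) on both arrays of a group, with a fail code on fewer than 12 arrays. Means of 12 groups were fitted with lmFit and eBayes (mean-variance trend), with two-sided p-values and, per comparison, Benjamini-Hochberg adjustment over all 365 probes. Groups follow the sample titles. Members and lists were chosen with earlier results of these data known. The text names the 3 members, the passenger strand on the array, the 3 probes with the highest r to each member, the 2 probes on either side of the members in the TGF-beta order, and the largest called rise and fall of each list. The marker miRNAs named beyond the lists' examples, and the other probes whose treatments separate completely, were named after their values were seen. Lists covered adipocyte and brown fat, TGF-beta induced, epithelial, fibroblast and mesenchymal, muscle, blood, endothelial, and neural and liver miRNAs. Alternatives covered 3 other scalings, the authors' table, 2 detection filters, slide and set blocks, array weights, no trend, and each array left out. The fit was tested on simulated data.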

Additional observations from a re-analysis of the deposited data

Results flagged for a closer look

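The response of miR-193 to TGF-beta differed between the 3 lines by an F test on the difference itself (limma, adjusted p = 0.01203). The responses within the lines were known when miR-193 was chosen, so this p is not independent evidence. The log2 difference of TGF-beta minus inhibitor was -0.92 in 67NR, -0.59 in 4TO7 and -0.98 in 4T1, with the TGF-beta arrays below the inhibitor arrays in each (4 arrays a side). Its adjusted p ran from 0.00646 to 0.0533 over 12 alternatives, 10 of which kept the call, and from 0.00251 to 0.0366 when each array was left out.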

How the results depend on the processing

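With TGF-beta the 3 members were lower in each line and over all lines under the 12 alternatives and without any 1 array. Over all lines the range was -0.88 to -0.81 for miR-193, -0.71 to -0.57 for miR-193b and -0.68 to -0.61 for miR-365. Over the 12 alternatives miR-193 ran from -1.11 to -0.90 in 67NR, -0.67 to -0.47 in 4TO7 and -1.10 to -0.84 in 4T1. MiR-193b ran from -0.88 to -0.67 in 67NR, -0.47 to -0.27 in 4TO7 and -0.97 to -0.54 in 4T1, and miR-365 from -0.81 to -0.59 in 67NR, -0.58 to -0.38 in 4TO7 and -0.78 to -0.63 in 4T1. The causes of the changes below were not tested. For rigid against compliant over all lines, 1 member was called, and 2 were called with scaling to the median of all mouse probes and with the authors' table. There 0 were called without normalization, without the detection filter, with only probes detected on all arrays, with slide as a fixed block and with a set block per line, and 0 to 2 without 1 array. In 67NR the 3 calls became 1 without normalization, 1 with slide as a fixed block, 2 without the detection filter, where miR-365 was lost (adjusted p = 0.0557), and 1 to 3 without 1 array. Among all probes of that 67NR comparison 23 were called higher and 17 lower, and 15 and 0 without normalization, which moved the median of all probes to 0.11. In TGF-beta cultures 0 calls became 0 to 1, with miR-193 gained without 4T1 compliant TGF-beta set 2 (adjusted p = 0.0304). For 4T1 against 4TO7 the 1 call became 3 without normalization, where 124 probes were called higher and 17 lower instead of 84 and 146 and the median of all probes was 0.12. For the TGF-beta response between lines, 1 call became 0 with scaling to the median of probes detected on all arrays, 2 without normalization, with the authors' table and with slide as a fixed block, and 1 to 2 without 1 array. With scaling to the median of all mouse probes the count stayed at 1, but miR-193 was lost (0.0533) and miR-193b gained (0.0415). MiR-193b was also gained there without 4TO7 compliant TGF-beta set 2 (0.0481), 4T1 compliant inhibitor set 1 (0.0466) or 4T1 rigid inhibitor set 2 (0.0324). For the rigid effect between lines, 0 calls became 1, miR-193b, under both median scalings, without normalization, with the authors' table and with slide as a fixed block. The range there was 0 to 1 without 1 array, with miR-193b gained without 4T1 compliant inhibitor set 1 (0.0496) or 4T1 rigid inhibitor set 1 (0.0422). For 4TO7 against 67NR, miR-193b passed under 2 alternatives and without 3 arrays, 67NR compliant TGF-beta set 1 (0.0361), 4TO7 compliant TGF-beta set 1 (0.0349) and 67NR compliant inhibitor set 2 (0.0401). For 4T1 against 67NR, miR-193b passed with scaling to the median of all mouse probes (-0.10, adjusted p = 0.0197).

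Values that had not passed changed sign in places. With slide as a fixed block these were miR-193 for rigid in 4TO7 (-0.0362), miR-193b for rigid in 4T1 (0.0468), in inhibitor cultures (-0.0416) and for 4T1 against 4TO7 (-0.009), and miR-365 for the rigid minus compliant TGF-beta response (0.0273). Without normalization these were miR-193 for rigid in 4T1 (-0.0816) and miR-193b for 4T1 against 67NR (0.0058), which also turned with the authors' table (0.0482). Under median scaling these were miR-193b for rigid in 4T1 (1e-04 and 0.0085), miR-365 there (0.0047) and miR-365 for 4T1 against 4TO7 (-0.0037). Without 1 array the rigid difference in 4TO7 ran from -0.0639 to 0.0275 for miR-193b and from -0.0012 to 0.1196 for miR-365. In 4T1 it ran from -0.038 to 0.09 for miR-193, -0.0655 to 0.0525 for miR-193b and -0.0915 to 0.0305 for miR-365. It ran from -0.0023 to 0.0764 for miR-193b in inhibitor cultures, from -2e-04 to 0.0588 for miR-193b in 4T1 against 4TO7, and from -0.0545 to 0.0268 for the miR-365 TGF-beta response.

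Set numbers were not taken to pair the arrays. Deviations of 66 pairs of groups correlated at -0.33 to 0.49 with a median of 0.09, and 32 were above 0.1 and 8 below -0.1. With set number as a replicate block the count of members called was the same in every comparison, and with a set block per line the 1 call for rigid over all lines, miR-193, became 0 (adjusted p = 0.0505). Slide as a random block had an estimated correlation of -0.01. A group left with 1 array was assumed to vary like the others.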
